A study of Mus musculus with 9 samples.

Results

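The genes described here are those whose RNA was lost in both *Vangl2*-edited lines of HC11 mouse mammary epithelial cells. Counts were scaled to CPM (counts per 1000000 counts of the culture), and a gene was taken as lost when its mean was at least 1 CPM in *WT* and below 25% of that mean in *KD1* and in *KD2*, with *Hhip* left out by the rule. The rule found 86 genes, which were 0.708% of the 12150 genes at or above 1 CPM in *WT* and came from a table of 55228 genes. *KD1* alone met the ratio limit for 387 genes (3.19%) and *KD2* alone for 213 (1.75%). Because these values chose the genes, the difference of each lost gene from *WT* is given as a description, with no test.

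HC11 is an immortalized mammary epithelial line that was grown here undifferentiated in medium with serum, insulin and EGF, without further treatment. Poly-A-selected RNA was sequenced from 9 cultures, 3 each of the parental line (*WT*, cultures labelled HC11), of Vangl2 knockout 1 (*KD1*) and of Vangl2 knockout 2 (*KD2*). Each *KD* line was grown from a single colony after nucleofection of Cas9 with its own guide and a repair template that carries stop codons, so *KD1* and *KD2* are 1 clone each, and 3 cultures of a clone measure the spread between cultures of that clone. Clone and edit cannot be told apart within a line. *Vangl2* itself had 66, 99 and 86 counts in *WT*, 75, 48 and 69 in *KD1* and 90, 118 and 90 in *KD2*, and a count over the whole gene does not show an inserted stop codon. For the protein, the paper's immunoblots found little or no VANGL2 in *KD1* and a strong reduction in *KD2*.

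VANGL2, the protein targeted, is a membrane protein of the planar cell polarity pathway, a branch of Wnt signalling that orients cells within a tissue sheet. The pathway shares Dishevelled with the branch that runs through beta-catenin, and secreted antagonists limit Wnt and BMP ligands outside the cell. Basal and luminal mammary cells differ in keratins, adhesion proteins and transcription factors, and several genes of the lost set are known from one of these compartments or from neural tissue.

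The culture totals ran from 19231428 to 28360592 counts, so 3 counts in each culture, used here as the floor of what a library can show, averaged 0.137 CPM in *WT*, 0.113 in *KD1* and 0.13 in *KD2*. Intervals and floors given here cover counting error only. The basal keratins *Krt5* and *Krt14* had means of 2070 and 1493 CPM in *WT*, and *Epcam*, an epithelial adhesion molecule, had 539 CPM, and the luminal keratins *Krt8*, *Krt18* and *Krt7* had 154, 122 and 69.3 CPM. The luminal markers *Krt19* and *Pgr* were at 0 counts in every culture, and the contractile basal markers *Acta2*, *Myh11* and *Cnn1* were low in *WT*, at 0.162, 0.413 and 0.092 CPM. Replicate 1 of *WT* and replicate 3 of *KD2* stood apart from the other cultures of their lines: the chi-square per degree of freedom over genes was 13.1 and 10.7 between *WT* replicate 1 and the others against 3.38 between the other two, and 17.4 and 22.1 between *KD2* replicate 3 and the others against 1.74.

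Of the 86 genes, 11 were on the list because of *WT* replicate 1. A gene was placed in this class when its CPM in 1 *WT* culture was over 4 times that in each of the others, a limit chosen after the values were seen. The culture was replicate 1 for all 11, and none of them met the rule without it. *Rn7sk*, the 7SK RNA that restrains transcription elongation, was counted 1341, 31 and 27 times in *WT*, 29, 37 and 22 times in *KD1* and 45, 38 and 67 times in *KD2*. *Rmrp*, the RNA of the RNase MRP ribonucleoprotein, had 689, 7 and 7 counts in *WT*, 19, 11 and 9 in *KD1* and 21, 14 and 23 in *KD2*. *Hist1h4k*, a replication-dependent histone gene, had 48, 7 and 7 counts in *WT*, 5, 4 and 5 in *KD1* and 4, 5 and 3 in *KD2*. In each of these genes replicates 2 and 3 of *WT* lay within or near the range of the *KD* cultures. The others were *Gm24270*, *Gm15564*, *Gm25939*, *Rnu3a*, *Rnu3b1*, *Gm25360*, *Rny1* and *Hist1h2bb*. Reads of such multicopy genes can be placed on a copy: 68.1% of the 50-base windows of *Rn7sk*, 71.5% of those of *Hist1h4k* and 100% of those of *Gm24270* also occur in other genes.

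**Figure D1:**
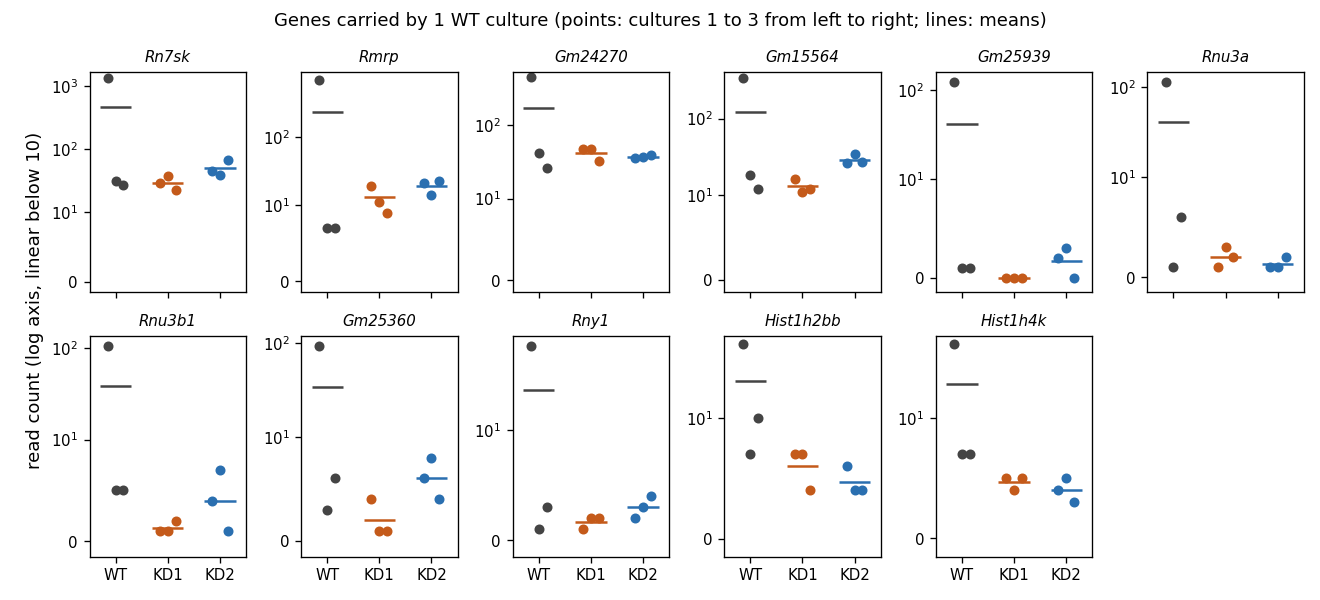
Read counts (log axis, linear below 10) of the 11 genes that met the rule because of 1 *WT* culture, in each culture of *WT*, *KD1* and *KD2*; points are cultures and lines are means. The first *WT* culture is the high point in all 11 panels, for example 1341 counts of *Rn7sk* against 31 and 27 in the other *WT* cultures.

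These 11 are mostly short RNAs or histone messages that are not polyadenylated in most cells. Sums of such classes, the 11 included, were higher in the same culture, to differing degrees. Over 553 genes annotated as miscellaneous RNA, *WT* replicate 1 had 86.5 CPM against 8.14 to 15.8 in the other 8 cultures. Of the 86.5 CPM, 66.9 were *Rn7sk*. The 2190 microRNA genes summed to 505 CPM there against 64.1 to 120 elsewhere. The 1493 snoRNA and scaRNA genes summed to 92 CPM against 61 to 78.8. The 70 genes of the histone clusters summed to 140 CPM there against 40.6 to 55.9 elsewhere. What set this culture apart was not tested. The levels described below are those of the other 75 genes, and counts over all 86 are named as such. Of the 75, 71 met the rule without *WT* replicate 1, the exceptions being *Grm3*, *Ndst3*, *Btg4* and *Slc43a1*. Without *KD2* replicate 3, 71 of the 75 met it.

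All 75 are protein-coding, with a median of 4.02 CPM in *WT* (range 1.06 to 389). Per length, their median in *WT* was 3.52 TPM (transcript abundance scaled by the annotated exon length), and the highest was 328 for *Nkd2*. What remained was a median of 2.86% of the *WT* level in *KD1* (range 0 to 24.1%) and 7.92% in *KD2* (0 to 24.9%). In *KD1*, 23 genes were under 1% of *WT* and 54 under 10%, and in *KD2* these numbers were 15 and 41. The percentage left was lower in *KD1* for 49 genes and in *KD2* for 23, and 3 had no count in either line.

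Loss to the floor, meaning at most 3 counts in every culture of a line, was seen for 33 of the 75 genes in *KD1*, 24 in *KD2* and 18 in both (without *WT* replicate 1 these were 31, 24 and 18). The 36 genes that stayed above the floor in both lines kept a measurable remnant. Among all 86 genes the counts were 37, 26 and 20. In all 75 genes every *KD* culture was below every *WT* culture, a separation that 19.5% of the 12150 expressed genes showed and that the rule itself favours. The coefficient of variation between *WT* cultures had a median of 12.4% over the 75, against 11.3% for 1752 genes of similar level. Genes with 1 high *WT* culture had been taken out of the 75 but not out of the 1752, so the likeness is partly built in. Over all 86 lost genes the median was 14.9%. In bulk RNA, fewer cells that express a gene and less of its RNA per cell cannot be told apart.

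**Figure D2:**
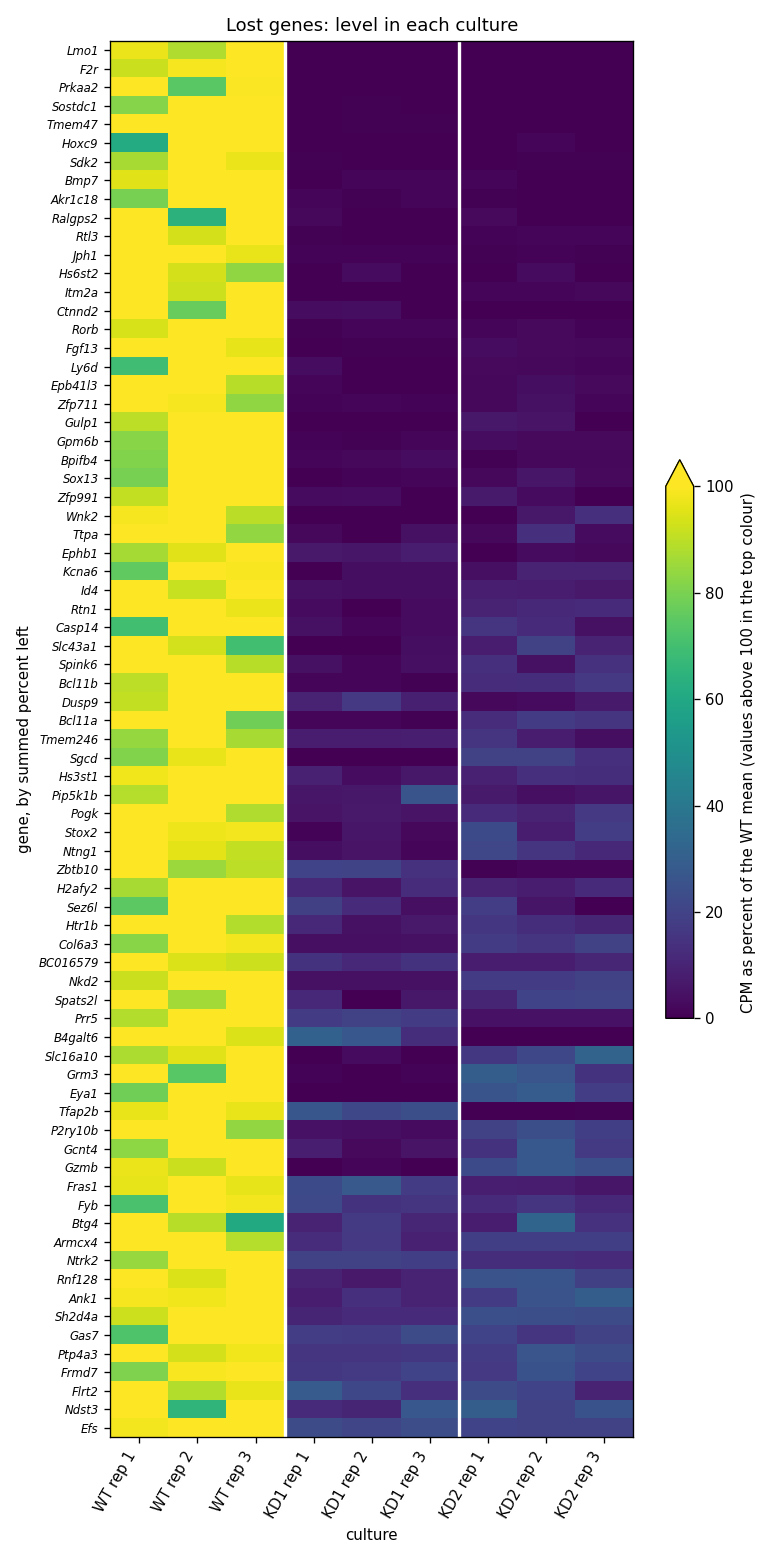
Level of the 75 lost genes in each of the 9 cultures, as percent of the *WT* mean CPM (colour, values above 100 share the top colour), ordered from the most complete loss at the top. The *KD* cultures are dark from *Lmo1*, with no count in either line, to *Efs*, with 22.5% left in *KD1* and 19.9% in *KD2*.

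Loss was complete at this depth for 3 genes, *Lmo1*, *F2r* and *Prkaa2*, which had no count in any of the 6 *KD* cultures (these 3 are named because of that, after their values were seen). *Lmo1*, a LIM-only adaptor of transcription factor complexes, had 59, 68 and 73 counts in *WT*. With the floor put in place of 0 it was lower by at least 26.9-fold in *KD1* and at least 23.4-fold in *KD2*. *F2r*, the thrombin receptor PAR1, had 49, 67 and 61 counts in *WT* and was lower by at least 23.6-fold and 20.5-fold. *Prkaa2*, the alpha 2 catalytic subunit of the energy sensor AMPK, had 40, 30 and 33 counts and was lower by at least 14-fold and 12.2-fold. The size of these bounds is set by the *WT* counts and by the floor chosen to stand for 0. They are therefore cautious and do not show how much larger the loss was. *Prkaa1*, which encodes the other AMPK catalytic subunit, was far more abundant at 142 CPM in *WT* and was not called in either line, where it had 186 and 142 CPM.

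The stretch before the start of these 3 genes is shown with that of *Tmem47*, the most abundant gene at the floor in both lines that has an entry in the RefSeq promoter table, to show what kind of promoter stands before genes with no or nearly no RNA left. Each sequence is the 250 bases before the first RefSeq start (assembly GRCm38.p6), 5′ to 3′ on the strand of the gene, and capitals mark CG dinucleotides, the site of DNA methylation in mammals. *Tmem47* is at chrX:81070394-81070643 (+ strand), *Lmo1* at chr7:109175208-109175457 (- strand), *F2r* at chr13:95618467-95618716 (- strand) and *Prkaa2* at chr4:105109899-105110148 (- strand).
Tmem47: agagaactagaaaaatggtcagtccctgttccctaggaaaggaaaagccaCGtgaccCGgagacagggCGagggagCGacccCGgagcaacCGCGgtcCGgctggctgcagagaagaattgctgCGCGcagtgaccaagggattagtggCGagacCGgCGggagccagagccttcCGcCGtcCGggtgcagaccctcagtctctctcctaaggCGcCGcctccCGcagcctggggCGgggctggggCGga
Lmo1: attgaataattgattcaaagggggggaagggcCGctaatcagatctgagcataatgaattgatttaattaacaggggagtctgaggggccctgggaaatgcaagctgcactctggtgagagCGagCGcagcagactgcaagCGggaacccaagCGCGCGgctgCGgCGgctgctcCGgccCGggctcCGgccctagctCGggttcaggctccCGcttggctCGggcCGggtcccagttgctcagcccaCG
F2r: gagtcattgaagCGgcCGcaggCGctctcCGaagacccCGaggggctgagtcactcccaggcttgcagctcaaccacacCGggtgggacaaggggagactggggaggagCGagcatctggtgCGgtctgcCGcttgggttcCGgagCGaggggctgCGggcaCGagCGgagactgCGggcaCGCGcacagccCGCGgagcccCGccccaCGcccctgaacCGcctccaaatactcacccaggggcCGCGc
Prkaa2: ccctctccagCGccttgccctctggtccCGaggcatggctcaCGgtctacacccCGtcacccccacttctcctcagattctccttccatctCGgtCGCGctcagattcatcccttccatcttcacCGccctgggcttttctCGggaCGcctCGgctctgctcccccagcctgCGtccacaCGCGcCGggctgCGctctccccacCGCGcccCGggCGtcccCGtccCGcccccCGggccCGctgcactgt
They held 21, 17, 24 and 24 CG dinucleotides, against a median of 6 and a 75th percentile of 16 over the 32851 entries of the table. The table holds starts of genes expressed here or not, while all 4 genes were expressed in *WT*. Values over expressed genes alone were not computed, so these numbers do not show whether lost genes differ from other expressed genes. The 4 were picked for the completeness of their loss and not for sequence, and no DNA methylation was measured in these cultures. A comparison over all lost genes was void, because 56 of the 75 (74.7%) have an entry and 80% was required.

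Among the genes on or near the Wnt and BMP pathways, *Sostdc1* had the lowest percentages left. It encodes a secreted antagonist of BMP and Wnt ligands. *Sostdc1* had 442, 791 and 584 counts in *WT*, 2, 3 and 1 in *KD1* and 2, 1 and 0 in *KD2*, which left 0.277% of the *WT* level in *KD1* and 0.148% in *KD2*. On 3 counts in *KD2* the ratio to *WT* was 675 (95% counting interval 222 to 3148). *Nkd2*, a Dishevelled-binding inhibitor of Wnt signalling, was the most abundant lost gene in both CPM and TPM. It had 7165, 10532 and 8330 counts in *WT*, 504, 468 and 455 in *KD1* and 1592, 1912 and 1463 in *KD2*. With 4.58% left in *KD1* and 18.1% in *KD2* it kept a remnant that was tight between cultures, and *KD2* was higher than *KD1* by 1.85 on the log2 scale (SE 0.0741, adjusted p = 4.7e-11, edgeR's quasi-likelihood test). The rule had used both means, so this p-value describes a chosen gene. *Bmp7*, a BMP ligand, had 0.862% left in *KD1* and 0.475% in *KD2*, at no more than 2 counts in any *KD* culture. The counting intervals of its ratio to *WT* were 46.1 to 439 in *KD1* and 58.3 to 1757 in *KD2*. Those of *Sostdc1* were 167 to 994 and 222 to 3148. These overlap and both genes were at the floor, so the depth of their loss cannot be ranked.

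Other signalling genes were lost to differing depths. *Fgf13*, which encodes an FGF-homologous factor that stays inside the cell, had 695, 911 and 696 counts in *WT*, 2, 4 and 4 in *KD1* and 26, 26 and 13 in *KD2*. *Sh2d4a*, an SH2-domain adaptor, had 911, 1272 and 1093 counts in *WT*, 142, 156 and 150 in *KD1* and 284, 337 and 216 in *KD2*. *Efs*, an adaptor of Src-family kinases, had 350, 463 and 373 counts in *WT*, 115, 99 and 107 in *KD1* and 85, 100 and 67 in *KD2*. *Fgf13* was thus near the floor in *KD1*, while *Sh2d4a* and *Efs* kept 11.4% and 22.5% there. Over the 14 signalling proteins and their regulators the median left was 8% in *KD1* and 5.23% in *KD2*, and 5 were at the floor in both lines (*Sostdc1*, *Bmp7*, *Ralgps2*, *Prkaa2* and *Wnk2*).

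Transcription and chromatin regulators formed the largest group by function, with 15 genes and a median of 1.25% left in *KD1* and 3.61% in *KD2*. The functional groups were drawn up after the genes were known. *Id4*, an inhibitor of basic helix-loop-helix factors that is known from mammary basal cells, had 4195, 4669 and 4339 counts in *WT*, 250, 201 and 192 in *KD1* and 388, 438 and 261 in *KD2*. *Rorb*, a nuclear receptor, had 1.13% left in *KD1* and 1.8% in *KD2*. *Hoxc9*, a homeobox gene, had no count in *KD1* and 1 count over the cultures of *KD2*, from 25, 65 and 48 in *WT*. Between the lines, 4 of the 15 were called higher in *KD2* and 2 higher in *KD1* in the comparison given below.

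*Tfap2b* and *Eya1* show both forms of that split. *Tfap2b*, an AP-2 transcription factor, had 410, 576 and 430 counts in *WT*, 158, 123 and 129 in *KD1* and 0, 0 and 3 in *KD2*. *Eya1*, a transcriptional coactivator and phosphatase of organ development, had 36, 62 and 56 counts in *WT*, none in *KD1* and 14, 19 and 8 in *KD2*. The zinc-finger repressors *Bcl11a* and *Bcl11b* shared the pattern of *Eya1*: 1.09% and 1.15% were left in *KD1*, against 15.2% and 14.1% in *KD2*. *Bcl11b* is known from mammary stem cells and *Bcl11a* from luminal progenitors.

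Related factors of the same families were mixed. Of the other AP-2 genes tested (*Tfap2a* and *Tfap2c*), *Tfap2c* was lower in both lines, at 23.2 CPM in *WT*, 8.71 in *KD1* and 5.28 in *KD2*. Its log2 fold changes were -1.40 and -2.26 (SE 0.114 and 0.124, adjusted p = 1.4e-07 and 2.4e-09 in edgeR). *Tfap4*, an AP-4 gene that shares the symbol stem but not the family, was also lower in both lines. *Tfap2a* was not called, at 60.8, 61.7 and 56.2 CPM. Of the *Eya* genes, *Eya2* was lower in both lines (log2 fold changes of -3.69 and -2.05), *Eya4* was lower in *KD1* and higher in *KD2* (-4.41 and 1.40), and *Eya3* was not called. Both contrasts share the *WT* cultures. Over all 52 symbol stems, 53 of 766 other genes (6.92%) were lower in *KD1* and 55 (7.18%) in *KD2*, against 7.49% and 6.71% of all genes tested. Of the 766, 325 have the stem *Zfp* and 162 the stem *Tmem*. A shared stem is a shared name and need not be kinship, so these shares mostly describe those 2 stems.

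Receptors and channels numbered 7, with medians of 3.99% left in *KD1* and 12.7% in *KD2*. *Ntrk2*, the BDNF receptor TrkB, had 547, 940 and 681 counts in *WT*, 173, 169 and 152 in *KD1* and 99, 118 and 76 in *KD2*. *Ntrk2* thus had more left in *KD1* (19.2%) than in *KD2* (12.7%), though the difference of -0.71 on the log2 scale was short of the 2-fold limit. *P2ry10b*, a G-protein-coupled receptor gene, had 3.99% and 20.6% left, and *Grm3*, a metabotropic glutamate receptor, had 0.646% and 23.6%. *Ephb1*, an ephrin receptor, went the other way with 6.89% in *KD1* and 1.6% in *KD2*.

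The adhesion and matrix group had 8 genes. *Sdk2*, an immunoglobulin-family adhesion protein that marks synaptic layers in the retina, had 232, 395 and 273 counts in *WT*, 2, 0 and 1 in *KD1* and 0, 2 and 2 in *KD2*. *Col6a3*, a chain of collagen VI, had 658, 1216 and 822 counts in *WT*, 47, 44 and 46 in *KD1* and 166, 175 and 150 in *KD2*. *Sgcd*, the delta-sarcoglycan of the dystrophin complex, had 50, 76 and 79 counts in *WT*, none in *KD1* and 14, 17 and 8 in *KD2*. *Sdk2* was at the floor in both lines, *Sgcd* in *KD1*, and *Col6a3* in neither. The partners of *Col6a3* in the collagen VI trimer were also lower in *KD1*, *Col6a1* at 476 CPM in *WT* and 68.1 in *KD1* and *Col6a2* at 138 and 5.95. In *KD2* the partners were not lower: *Col6a2* was called higher, at 411 CPM (log2 fold change 1.47, SE 0.115, adjusted p = 7.6e-08, edgeR), and *Col6a1* had 875 CPM and was not called.

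Membrane and membrane-skeleton proteins were lost deeply, with medians of 1.15% left in *KD1* and 3.37% in *KD2* over 12 genes, 5 of which were at the floor in both lines. *Tmem47*, a four-pass protein of cell junctions, had 300, 383 and 315 counts in *WT*, 0, 2 and 2 in *KD1* and 0, 0 and 1 in *KD2*. The ratio of *WT* to *KD1* for *Tmem47* was 293 (95% counting interval 117 to 1103). *Tmem47* stayed at or below the floor in every *KD* culture, in contrast to *Itm2a* and *Gas7*. *Itm2a*, a membrane protein of differentiating cells, had 969, 1088 and 992 counts in *WT*, 4, 3 and 1 in *KD1* and 16, 22 and 19 in *KD2*. *Jph1*, a junctophilin that ties the plasma membrane to the endoplasmic reticulum, had no more than 2 counts in any *KD* culture. *Gas7*, which binds actin, had 310, 659 and 477 counts in *WT*, 109, 99 and 125 in *KD1* and 102, 94 and 81 in *KD2*. Of the exons of *Tmem47*, 11.5% overlap *Gm26775* on the other strand, and reads there cannot be assigned if counting ignored strand.

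Enzymes, inhibitors and secreted proteins were among the rest. *Akr1c18*, the 20-alpha-hydroxysteroid dehydrogenase that inactivates progesterone, had 185, 329 and 269 counts in *WT*, 5, 2 and 4 in *KD1* and 2, 0 and 0 in *KD2*. *Gzmb*, granzyme B, a serine protease known from cytotoxic lymphocytes, had 62, 75 and 74 counts in *WT*, 0, 1 and 0 in *KD1* and 17, 25 and 15 in *KD2*. *B4galt6*, a galactosyltransferase of lactosylceramide synthesis, had 87, 108 and 83 counts in *WT*, 36, 30 and 14 in *KD1* and none in *KD2*. *Gzmb* was therefore at the floor in *KD1* and *B4galt6* in *KD2*. The 6 glycan enzymes included *Hs6st2*, *Hs3st1* and *Ndst3*, which sulfate heparan sulfate chains, and *Hs6st2* had 1 count in each line.

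Among genes with no assigned role here, *Rtl3*, a gene derived from a retrotransposon Gag protein, had 573, 647 and 571 counts in *WT*, 3, 2 and 1 in *KD1* and 5, 11 and 10 in *KD2*. *BC016579* had 388, 412 and 330 counts in *WT*, 70, 53 and 64 in *KD1* and 32, 37 and 35 in *KD2*. *Armcx4*, an X-linked armadillo-repeat gene, had 347, 468 and 315 counts in *WT*, 60, 75 and 39 in *KD1* and 74, 88 and 60 in *KD2*. *Rtl3* was at the floor in *KD1* and above it in *KD2*, and the other two were above it in both lines.

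**Figure D3:**
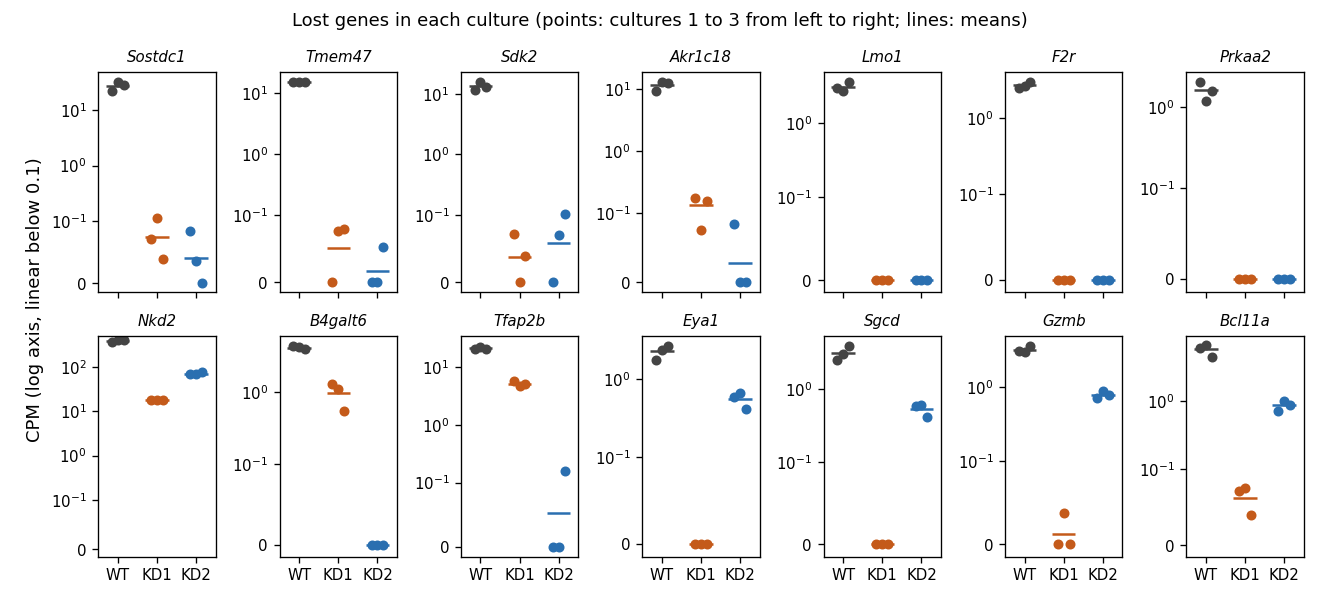
CPM (log axis, linear below 0.1) of 14 lost genes in each culture of *WT*, *KD1* and *KD2*; points are cultures and lines are means. *Lmo1*, *F2r* and *Prkaa2* are at 0 in all 6 *KD* cultures, while *Tfap2b* and *B4galt6* kept a remnant in *KD1* alone and *Eya1* and *Sgcd* in *KD2* alone.

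Some genes lay close to the limits of the rule. Just inside the ratio limit were *Gzmb*, with 24.9% left in *KD2*, and *Ndst3*, with 24.8% there. Just outside were *Slc22a17*, with 25.1% in *KD2*, and *Spef1*, with 25.3% in *KD1*. At the *WT* minimum, *Hist1h4k* (1.002 CPM) and *Kcna6* (1.061 CPM) were inside, and *Egfl7* (0.9938 CPM) and *Cdh10* (0.9893 CPM) were outside. *Kcna6*, a potassium channel, had 16, 34 and 22 counts in *WT*, 0, 1 and 1 in *KD1* and 1, 3 and 2 in *KD2*, and 39.6% of its exons overlap *Gm26673* on the other strand. *Ndst3* had 33, 24 and 36 counts in *WT*, 5, 4 and 10 in *KD1* and 10, 8 and 7 in *KD2*. *Zfp991* shares 82.2% of its 50-base windows with other genes, so its counts are uncertain.

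Whether both clones lost these genes to the same depth was examined between *KD2* and *KD1*. The rule used the means of both lines and capped them, and 79 of the 86 passed the expression filter with their *WT* counts included, so the counts describe these genes and nothing is read from their shares. Of the 79 tested, 24 were called higher in *KD2* and 7 lower (edgeR, adjusted p under 0.05 and over 2-fold). As shares of all 86, untested ones included, these are 27.9% and 8.14%. Of all 15253 genes tested, 14.7% were called higher and 8.58% lower. With only the 6 *KD* cultures in the fit, 36 of the 86 passed the filter and 50 did not. Of the 36, 15 were called higher and 5 lower. Of the 14972 genes tested there, 14.6% were called higher and 8.66% lower. Of the 24 and 7, the 14 and 5 that could still be tested were called again, and 10 and 2 did not pass the filter. All 31 called in the fit of 9 cultures were among the 75. The 7 lower in *KD2* were *Tfap2b*, *Prr5*, *Zbtb10*, *B4galt6*, *Dusp9*, *Fras1* and *Ephb1*. Among the 24 higher in *KD2* were *Nkd2*, *Itm2a*, *Col6a3*, *Fgf13*, *Bcl11a* and *Bcl11b*, and of these 24, *Gulp1* and *Wnk2* rested on 4 and 5 counts over the *KD2* cultures and none in *KD1*.

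The 5 called genes with the widest gap were *B4galt6*, *Tfap2b*, *Eya1*, *Sgcd* and *Gzmb*. They were picked by that gap from genes that the rule had chosen on both means, so their p-values are a description. Against the floor, *B4galt6* in *KD1* was at least 7.64-fold higher (0.99 CPM, with no count in *KD2*, adjusted p = 5.4e-06 in edgeR). *Tfap2b* was higher in *KD1* by a ratio of 122 (95% counting interval 41.3 to 593, adjusted p = 1.2e-09 in edgeR), with 5.12 and 0.052 CPM, and the 3 counts in *KD2* were all in replicate 3. *Eya1* was at least 4.97-fold higher and *Sgcd* at least 4.76-fold higher in *KD2* (adjusted p = 1.8e-05 and 2.3e-05 in edgeR). *Gzmb* was higher in *KD2* by a ratio of 64 (counting interval 11 to 2572, adjusted p = 1.2e-06 in edgeR).

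**Figure D4:**
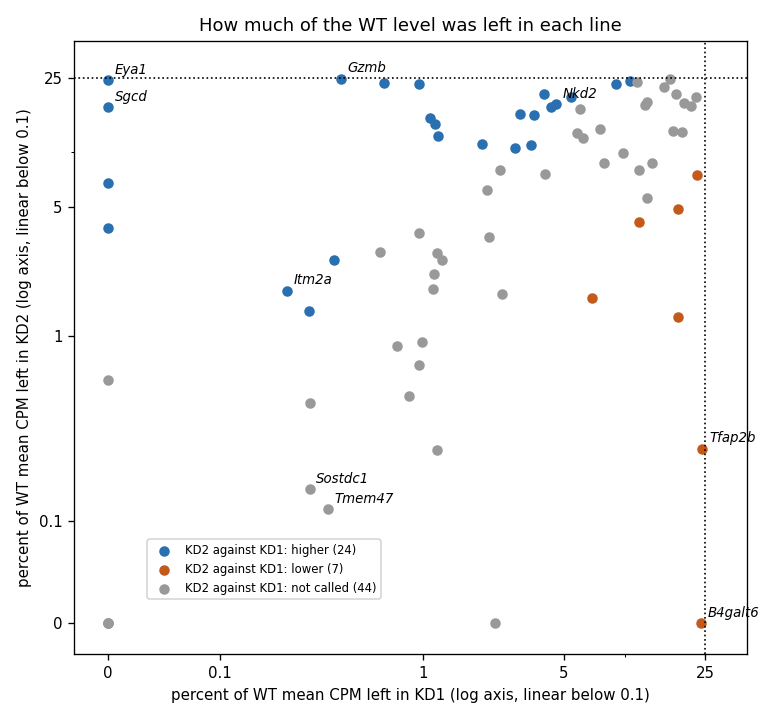
Percent of the *WT* mean CPM left in *KD1* (x axis) and in *KD2* (y axis) for the 75 lost genes, on log axes that are linear below 0.1; dotted lines mark the limit of 25% and colours the edgeR call of *KD2* against *KD1*. Of the points, 24 are called higher in *KD2*, 7 lower and 44 not called, and *Lmo1*, *F2r* and *Prkaa2* share the point at 0.

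On the genome, the lost genes were spread over most chromosomes, with 12 of the 75 on X (16%, where 3.03% of expressed genes lie). Chromosome 1 held 9 (12%, against 5.78% of expressed genes). On chromosome 13 there were 7 (9.33% against 3.82%) and on chromosome 15 there were 6 (8% against 4.01%). The X-linked genes were *Itm2a*, *Fgf13*, *Rtl3*, *Armcx4*, *Tmem47*, *Rnf128*, *Gpm6b*, *P2ry10b*, *Zfp711*, *Dusp9*, *Frmd7* and *Hs6st2*. In *KD2* all tested genes of X and of chromosome 13 were lower as a whole, with median log2 fold changes of -0.63 and -0.66 against 0.01 over all genes, and in *KD1* these medians were -0.09 and -0.05 against -0.03. The part of these chromosome-wide shifts in the loss was not tested.

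In 3 places lost genes lay within 1 Mb of each other (GRCm38). *Rtl3* (chrX:106837082-106840644), *P2ry10b* (chrX:107148927-107173661) and *Itm2a* (chrX:107397099-107403376) lay within 566 kb, and *Lpar4*, a lysophosphatidic acid receptor gene between them, went from 0.48 CPM in *WT* to 0 in *KD1* and 0.0118 in *KD2*. The other two were *Id4* with *Wnk2* on chromosome 13 (887 kb) and *Frmd7* with *Hs6st2* on X (787 kb). Within 1 Mb of the first group, 1 of 9 other tested genes was lower in each line. Around *Id4* and *Wnk2*, 2 of 19 were lower in *KD1* and 7 in *KD2*, and around *Frmd7* and *Hs6st2*, none of 6 was lower in *KD1* and 2 were in *KD2*. Over all genes tested, 7.49% were lower in *KD1* and 6.71% in *KD2*. Chromosome 13 and X as a whole were lower in *KD2* (median log2 fold changes of -0.66 and -0.63). The part of that shift in these counts was not tested.

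The nearest tested gene on each side of each lost gene, leaving out lost genes themselves, gave 160 neighbours of the 83 genes with a known position, at a median distance of 108 kb. Of these, 27 (16.9%) were lower than *WT* in *KD1* and 28 (17.5%) in *KD2*, against 7.49% and 6.71% of all genes tested. In both lines 14 were lower, but both contrasts share the *WT* cultures. The share of all genes lower in both lines was not computed, so nothing is read from the 14. The median log2 fold change of the neighbours was -0.21 in *KD1* and -0.20 in *KD2*. Leaving out X and chromosome 13, a choice made after seeing their shift, 22 of 121 neighbours (18.2%) were lower in *KD1* and 14 (11.6%) in *KD2*, against 7.52% and 5.55% of genes there. For 45 of the 83 lost genes neither neighbour was called lower in either line. The 75 genes alone had 146 neighbours, of which 18.5% were lower in *KD1* and 19.2% in *KD2*, and 37 of the 75 had no neighbour called lower. How often other genes have no lower neighbour was not computed.

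The neighbours named here were chosen by kinship to the lost gene beside them, after their values were seen. *Bpifb3*, beside *Bpifb4*, went from 0.682 CPM to no count in either line. *F2rl2*, which encodes another protease-activated receptor and lies 78.4 kb from *F2r*, was at 0.68 CPM in *WT*, 0 in *KD1* and 0.0659 in *KD2*. *Spink5*, a protease inhibitor 48.9 kb from *Spink6*, went from 177 CPM in *WT* to 51.5 in *KD1* and 10 in *KD2* (log2 fold changes of -1.76 and -4.25, SE 0.0709 and 0.0834, adjusted p = 6.7e-11 and 3.3e-13 in edgeR). *Hoxc5*, whose annotated span overlaps that of *Hoxc9*, had 0.562, 0 and 0.207 CPM. These 4 were lower in both lines, and other related neighbours were not. *Gzmc*, beside *Gzmb*, had 14.3 CPM in *WT*, 0.0382 in *KD1* and 19.3 in *KD2*. *Slc43a3*, beside *Slc43a1*, was lower in *KD1* and higher in *KD2*, at 0.413, 0 and 2.44 CPM. *F2rl1*, the neighbour of *F2r* on its other side, was not called, at 10.5, 8.69 and 12.1 CPM, and neither were *Armcx1* beside *Armcx4*, *Ly6e* beside *Ly6d* and *Akr1e1* near *Akr1c18*.

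**Figure D5:**
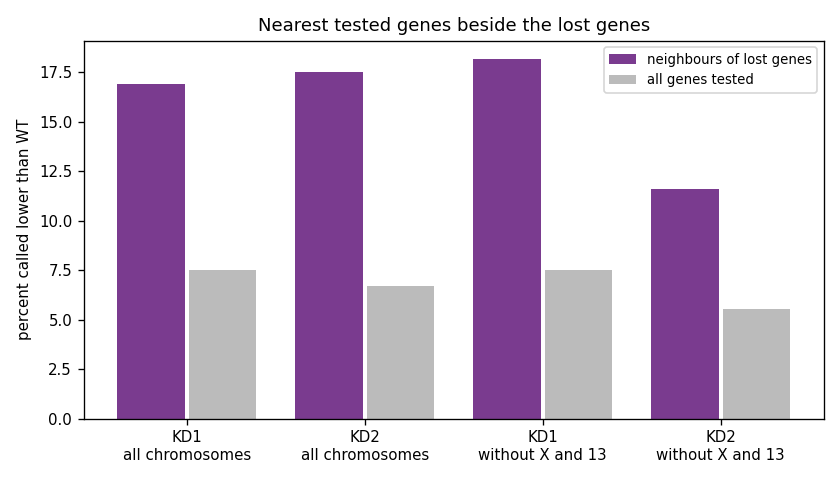
Share of genes called lower than *WT* by edgeR (percent, axis from 0) among the nearest tested neighbours of lost genes and among all genes tested, for *KD1* and *KD2*, with and without chromosomes X and 13. Neighbours stand at 16.9% and 17.5% against 7.49% and 6.71%, and at 18.2% and 11.6% against 7.52% and 5.55% without the 2 chromosomes.

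Other genes of the pathways that the lost genes belong to were counted apart from them. The shares over all genes tested, given with the first list, apply to every list below. Beside *Sostdc1*, 12 other secreted Wnt and BMP antagonists were tested: 5 were lower and 2 higher in *KD1* and 1 was lower and 3 higher in *KD2*, where over all genes tested 7.49% were lower and 9.34% higher in *KD1* and 6.71% lower and 14.5% higher in *KD2*. The median log2 fold changes were -0.05 and 0.25 against -0.03 and 0.01 over all genes. *Notum*, a Wnt-inactivating enzyme, was the one lower in both, at 8.14 CPM in *WT*, 1.19 in *KD1* and 3.04 in *KD2*. *Nog*, the BMP antagonist noggin, was lower in *KD1*, at 1.85 CPM in *WT* and 0.075 in *KD1*, and had 1.99 CPM in *KD2*.

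Beside *Sdk2*, 19 other adhesion proteins of the immunoglobulin and cadherin families were tested, of which 5 were lower and 2 higher in *KD1* and 4 lower and 3 higher in *KD2*. *Cntn2*, a contactin, was lower in both lines, at 7.38 CPM in *WT*, 0.0387 in *KD1* and 2.36 in *KD2* (edgeR gave adjusted p = 1.4e-09 for the first and 3.2e-06 for the other). *Cdh2*, N-cadherin, went opposite ways, at 23.6, 0.289 and 175 CPM. The median of the list was 0.20 in *KD1* and 0.03 in *KD2*.

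Beside *Akr1c18*, none of 11 other steroid-converting enzymes was lower in either line, and 5 were higher in *KD1* and 3 in *KD2*, with median log2 fold changes of 0.76 and 0.27. *Hsd11b1*, which regenerates active glucocorticoid, was higher in both, at 0.571 CPM in *WT*, 3.62 in *KD1* and 15.8 in *KD2*. Beside *Tmem47*, 12 other four-pass proteins of the PMP22 and claudin group had 4 higher in *KD1*, and 2 lower and 2 higher in *KD2*, with none lower in *KD1* and medians of 0.39 and -0.19. *Cldn4*, a claudin of tight junctions, was at 21.5 CPM in *WT*, 612 in *KD1* and 20.1 in *KD2*.

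Beside *Col6a3*, 37 other matrix genes split by line: 13 were lower and 7 higher in *KD1*, and 4 lower and 15 higher in *KD2*. *Postn*, periostin, and *Fbln2*, fibulin 2, were lower in both lines, *Postn* at 325, 6.79 and 114 CPM and *Fbln2* at 1.96, 0.718 and 0.517 CPM. Their median differences from *WT* were 0.00 and 0.77 on the log2 scale. Of the Hedgehog list, which holds no lost gene once *Hhip* is left out, 3 of 11 other tested genes were lower in *KD1* and 2 in *KD2*, and *Gli1*, the pathway's transcriptional target and effector, was at 26 CPM in *WT*, 2.47 in *KD1* and 11.8 in *KD2*. Of 17 planar cell polarity genes tested, 4 were lower and 2 higher in *KD1*, 1 was lower and 2 higher in *KD2*, and no lost gene was among them. Over all genes tested, 7.49% were lower and 9.34% higher in *KD1*, and 6.71% were lower and 14.5% higher in *KD2*.

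Marker genes of other cell types moved with the lines, and none of them was a lost gene. Summed over 15 fibroblast and stromal markers, *WT* cultures had 142 to 195 CPM, *KD1* cultures 39.6 to 43.9 and *KD2* cultures 1180 to 1383, of which 1152 CPM on average was *Vim*, and *Dpt* was at 0 in every culture. Of the 8 that could be tested, 5 were lower in *KD1*, and 2 were lower and 4 higher in *KD2*. The 10 neural and Schwann cell markers summed to 170 to 177 CPM in *WT*, 69.2 to 71.6 in *KD1* and 189 to 261 in *KD2*, with *Sox10* and *Nefl* at 0. The 10 immune markers summed to 3.44 to 6.24, 7.09 to 8.63 and 7.8 to 9.06 CPM, with *Adgre1* and *Tyrobp* at 0, and the 10 endothelial and adipocyte markers to 2.43 to 2.63, 7.38 to 7.88 and 1.61 to 2.75 CPM, with *Emcn* at 0. The 15 basal markers summed to 6292 to 7009 CPM in *WT*, 7172 to 7203 in *KD1* and 3706 to 4603 in *KD2*, and the 16 luminal markers to 1263 to 1425, 1716 to 1758 and 1325 to 1490 CPM. Abundant genes carry such sums. Of 14 basal markers tested, 2 were lower and 1 higher in *KD1*, and 1 was lower and 4 higher in *KD2*. Of 12 luminal markers tested, none was lower and 4 were higher in *KD1*, and 1 was lower and 1 higher in *KD2*. Of 3 immune markers tested, none was called in *KD1*, and 2 were higher in *KD2*. The part of the markers in the loss was not tested.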

How the data were processed

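The authors deposited raw read counts per gene for the 9 cultures, which the authors had made by trimming with fastp, mapping to GRCm38 with HISAT2 and counting over exons with featureCounts; they then used DESeq2. All columns were mapped to a culture by its label (0 were left over). The labels call the lines knockouts and state that lysates were flash frozen, where the methods speak of *KD* lines and state that they were not. Counting is not stated to use strand. *P*-values measure the spread between cultures.

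CPM were computed on column totals. The quasi-likelihood test of edgeR 4.0.16 was run on the counts, with TMM scaling, filterByExpr and 1 fit of all 9 cultures, and tested on simulated data. *P*-values were adjusted by Benjamini-Hochberg over 15253 genes; calls needed an adjusted p under 0.05 and a log2 fold change beyond 1 in either direction. DESeq2 1.42.0 was an alternative. SE is that of the log2 fold change. Positions and exons came from GENCODE for GRCm38, by name (53456 names) or older name (135). The numbers of same-numbered cultures did not pair them.

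Counts in every culture are given for the 15 lost genes with the highest *WT* CPM, those on a pathway list, the 5 with the largest called difference between the lines and those next to each limit. Others were named after their values were seen, by function or completeness. The lost genes, lists and tests were chosen with earlier results of these data known.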

Additional observations from a re-analysis of the deposited data

Results flagged for a closer look

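Between *KD2* and *KD1*, edgeR called 24 lost genes higher in *KD2* and 7 lower in the fit of 9 cultures. With only the 6 *KD* cultures, 36 of the 86 passed the filter, and 15 of these were called higher and 5 lower. Of all genes tested there, 14.6% were called higher and 8.66% lower. The rule capped both lines and many lost genes passed the filter only with their *WT* counts, so the counts are a description. The fitted log2 differences of the 5 widest were -7.65 for *B4galt6*, -6.87 for *Tfap2b*, 6.73 for *Eya1*, 6.66 for *Sgcd* and 5.40 for *Gzmb*. Those of *B4galt6*, *Eya1* and *Sgcd* depend on the prior count, because one line had no count, and the lower bounds of 7.64-fold, 4.97-fold and 4.76-fold are the firmer values. Without *KD2* replicate 3 the difference for *Tfap2b* was -10.03, and without *KD1* replicate 2 that for *Gzmb* was 7.19, since those cultures held the only counts of their line. With 3 cultures a line, no group was large enough for the test of single outlying cultures.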

How the results depend on the processing

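The number of lost genes was 37 with a ratio limit of 10% and 240 with 50%, and 53 when the highest *KD* culture had to be below 25% of the lowest *WT* culture. Leaving out a culture gave 73 (without *WT* replicate 1) to 104, with 71 to 86 of the 86 genes kept. TMM library sizes gave 97 and median-of-ratios 96, and both kept all 86. A floor of 1 count gave 20 genes at the floor in *KD1*, 9 in *KD2* and 7 in both, and a floor of 10 counts gave 59, 49 and 42. Leaving out a *KD* culture gave 38 to 40, 28 to 33 and 20 to 25. Fitting only the 6 *KD* cultures gave 15 genes higher in *KD2* than in *KD1* in place of 24, and 10 of the 24 did not pass the filter there; the other 14 were called again. The other alternatives stayed within 1.5 times, with 20 to 24 higher and 7 to 8 lower when a culture was left out. Neighbours lower in *KD1* were 27 to 29 and in *KD2* 25 to 29 without a culture.

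With the replicate number as a block, 23 lost genes were higher in *KD2* than in *KD1* and 8 lower, and 28 neighbours were lower in *KD1* and 29 in *KD2*. Same-numbered cultures did not deviate together (correlations of -0.065 to 0.079, against -0.101 to 0.107 for different numbers), so they share only a number.

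Depth limits what can be said of complete loss: 3 counts correspond to about 0.113 to 0.137 CPM. With that floor in place of 0, *Ctnnd2* (1.07 CPM in *WT*, no count in *KD2*) was at least 8.27-fold lower there.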
